A study of Oryza sativa with 6 samples.

Results

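Chitinases cut chitin, the polymer of N-acetylglucosamine that stiffens fungal cell walls and that plants themselves do not make. In plants they count among the pathogenesis-related proteins, which accumulate around infection, wounding and several abiotic stresses, and some are also made during normal growth. They fall into classes by structure: class I and class IV enzymes usually carry a chitin-binding domain in front of the catalytic domain, and class II enzymes lack it. The 5 genes described here are rice chitinases of this kind, listed as Cht2, Cht4, Cht5, Cht7 and Cht10, out of 17905 genes that had a probe set of their own.

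The genes were chosen by the difference of their log2 values between mutant and wild type arrays, in an earlier comparison of the same arrays. Their differences are therefore given as descriptions, without a test, and support nothing. Each gene was found by its name among the RefSeq synonyms and represented by its probe set with the highest mean over the 6 arrays. No filter on low values was applied, so all 5 were kept.

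The name Cht2 needs care, because 2 genes carry it as a synonym. One, LOC4338718 (also OsChia1b and RC7), had no probe set in the platform annotation and was not analysed here. The other, LOC4349267, is also called Cht8 and OsChia2a. It is the gene behind the values given here, and it is called Cht8 in what follows. Nor were the 5 genes all of class I by name: only Cht7 (LOC4338720) has a synonym of the class I series, OsChia1d. Cht4 (LOC4336263, OsChia2b) and Cht8 carry class II names, Cht5 (LOC4336265, OsChia4a) a class IV name, and Cht10 (LOC4325148, GCH7) no class in its names. The classes were read from these names alone. No sequence was checked, so whether a gene has the structure of its named class is not known here.

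Levels came from flag leaves, the uppermost leaf of a rice shoot, of japonica cultivar Zhonghua11. One group of 3 arrays held the wild type and the other 3 an OsSLAC7 (Os01g0385400) T-DNA insertion mutant of the same cultivar, with no treatment in either. Plants began in a greenhouse and later stood in a field, and their age was not given. Zygosity, other insertions in the line and the number of plants per array were not given either, and the transcript of OsSLAC7 was not analysed here. The labels call the arrays of a group biological replicates without naming separate plants, so the spread between them may be partly technical.

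Values are log2 RMA values, on which a step of 1 is a factor of 2 in signal. Array medians over all probe sets lay between 4.58 and 4.72, and mutant replicate 1 had the lowest weight when arrays were weighted by their fit (0.441). The mean level of 7 leaf blade markers, among them light-harvesting antenna and Rubisco genes, was 13.44 to 13.57 on the 6 arrays. Levels of different probe sets are not comparable, so this is given as a description of the labelled tissue. Detection calls were not used here, so it is not known whether a low value lies above background. In a whole leaf, fewer cells of a type and less RNA per cell cannot be told apart.

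Cht4 had the highest difference of all 17905 genes. Its values were 3.35, 2.99 and 3.05 in the 3 wild type arrays and 9.19, 8.70 and 9.03 in the 3 mutant arrays. The groups lay far apart, with 5.35 between the highest wild type and the lowest mutant array. Means were 3.13 ± 0.19 in wild type and 8.97 ± 0.25 in mutant leaves (SD, n = 3 each), a difference of 5.84 (SE 0.15) on the log2 RMA scale. No fold is given, because the wild type values may lie in the background. The spread within either group was thus a small part of the difference. Leaving out any 1 array kept the difference between 5.73 and 5.98.

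Cht5, the chitinase with the class IV name, came 15th among all genes by its difference. It measured 6.61, 6.69 and 6.55 in wild type and 9.62, 9.49 and 9.45 in mutant leaves. Again no arrays overlapped, and the gap was 2.76. Means were 6.62 ± 0.07 and 9.52 ± 0.09 (SD, n = 3 each), so the mutant was higher by 2.90 (SE 0.10), or 7.49-fold. Without any 1 array the difference stayed between 2.86 and 2.94. Taken from each gene's own wild type mean, the mutant arrays stood at 6.06, 5.57 and 5.90 for Cht4. For Cht5 they stood at 3.0, 2.88 and 2.84. Mutant replicate 1 was thus the highest mutant array for both genes, while the lowest was replicate 2 for Cht4 and replicate 3 for Cht5.

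Cht7, the gene with the class I name, differed far less. Its wild type arrays read 5.54, 5.35 and 5.96, and its mutant arrays 6.25, 6.11 and 6.21. The groups were separate by only 0.15, since wild type replicate 3 lay close to the mutant arrays. The means of 5.62 ± 0.31 and 6.19 ± 0.07 (SD, n = 3 each) differed by 0.58 (SE 0.15), or 1.49-fold. Here the wild type spread was the wider one, and the difference ran from 0.44 without wild type replicate 2 to 0.75 without wild type replicate 3.

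Cht8 and Cht10 stood lower in the mutant. Cht8 read 11.76, 11.74 and 11.73 in wild type and 11.25, 11.02 and 10.97 in mutant leaves. All mutant arrays lay below all wild type arrays, by at least 0.48, and they were more spread out. The means were 11.74 ± 0.02 and 11.08 ± 0.15 (SD, n = 3 each), with a difference of -0.66 (SE 0.11), or 1.58-fold lower. That placed Cht8 as the 187th gene from the lowest difference.

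Cht8 is the only one of the 5 genes with more than 1 probe set in the annotation. A set ending in _s_at, of a kind that may bind related transcripts, was built from the same sequence record. It read 11.34, 11.36 and 11.32 in wild type and 10.70, 10.78 and 10.60 in mutant arrays, a difference of -0.65 (SE 0.09). Its 3 mutant values too lay below all wild type values. The remaining set was built from another record. It read 4.40, 4.33 and 4.45 against 4.27, 4.32 and 4.42, where the groups overlapped and differed by -0.05 (SE 0.09). The lower Cht8 value thus appeared in the pair of sets from one record and not in the set from the other. That remaining set read below the median of every array and may lie in the background, where a fall could not be seen.

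Cht10 had the narrowest difference of the 5 genes. Wild type arrays read 7.55, 7.62 and 7.57, and mutant arrays 7.27, 7.37 and 7.20. The groups did not overlap, with a gap of 0.19. Means of 7.58 ± 0.03 and 7.28 ± 0.08 (SD, n = 3 each) gave a difference of -0.30 (SE 0.09), or 1.23-fold lower.

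**Figure D1:**
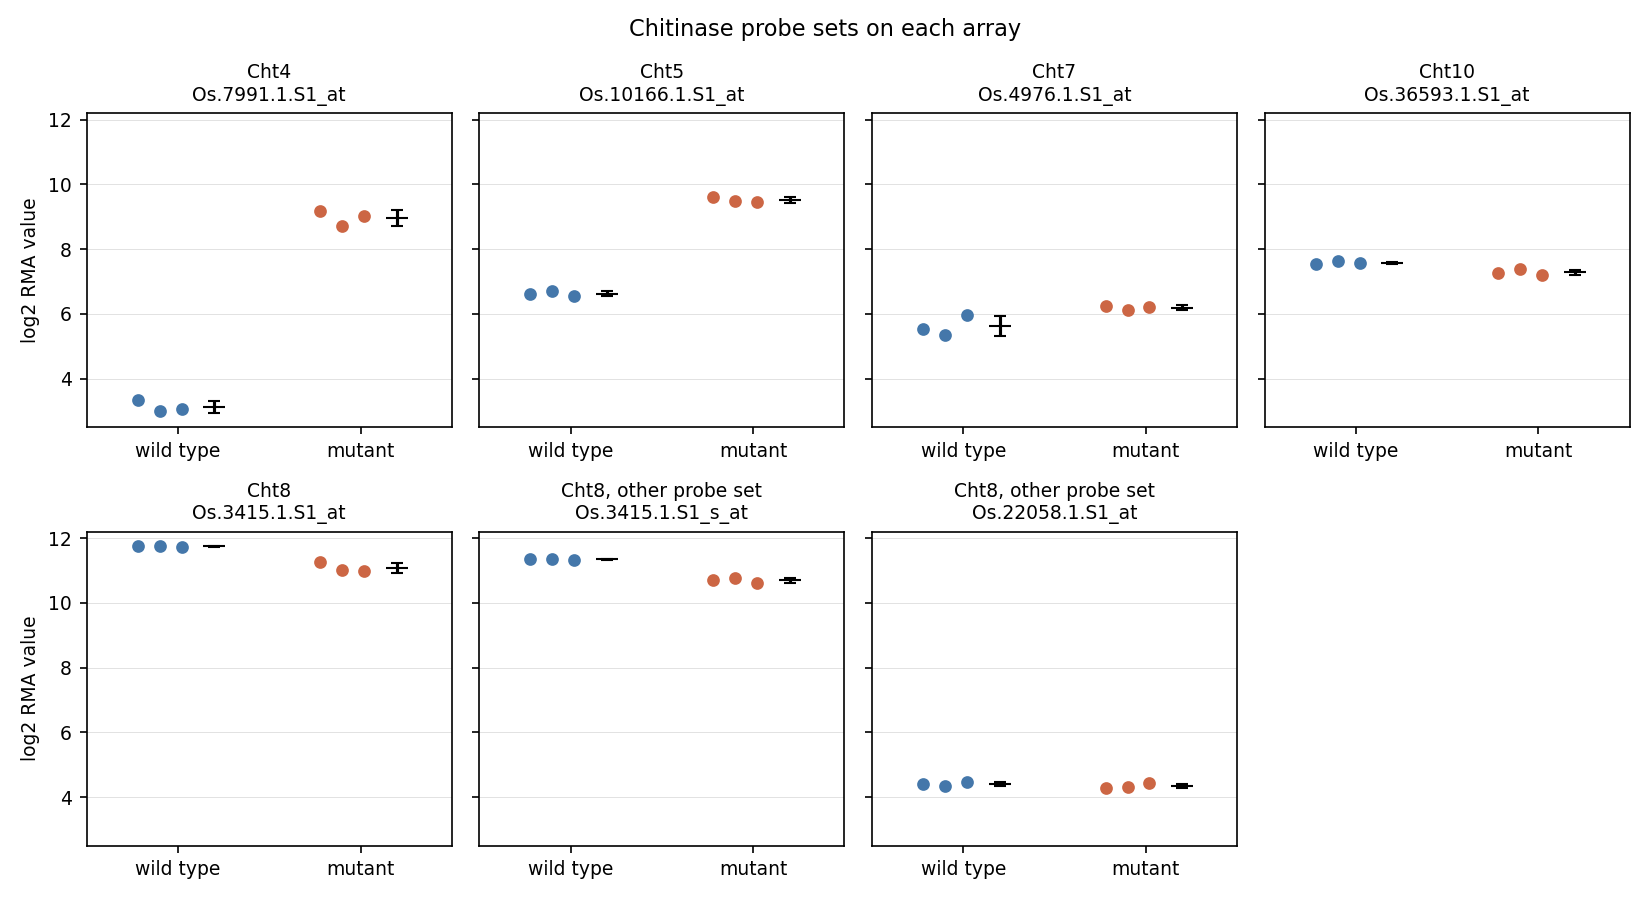
Log2 RMA values (y axis) of the 7 probe sets of the 5 chitinases on the 3 wild type (blue) and 3 mutant (orange) arrays, with the mean and SD of each group in black; levels are to be compared within a panel only. Cht4 runs from about 3.13 to 8.97 and Cht5 from 6.62 to 9.52, while the shifts of Cht7, Cht10 and Cht8 are under 1.

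Separation of the groups is common in these data, which sets the scale for these values. Mutant and wild type arrays did not overlap in 45.6% of all genes, 32.2% with the mutant higher and 13.4% with the mutant lower. All 5 chitinases were separated, 3 upward and 2 downward, but the choice of genes fixed this and nothing is read from it. The median difference of the 5 was 0.58, beside 0.10 over all genes. Between the 5th and the 95th percentile, gene differences ran from -0.35 to 0.79. Cht7 and Cht10 lay inside that range. Cht8 lay just above the 1st percentile of -0.67, and Cht4 and Cht5 far beyond the 99th of 1.56.

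The direction of each of the 5 differences was the same under every scaling tried. Arrays were centred by their probe set median, normalised again by quantiles, or centred by their gene median. The gene median was taken over 1 probe set for each of the 17905 genes. These scalings left Cht4 between 5.63 and 5.90. Under the same scalings Cht5 lay between 2.69 and 2.96, and Cht7 between 0.36 and 0.63. Cht10 lay between -0.52 and -0.25, and Cht8 between -0.88 and -0.61. Centring on the gene median gave the lowest value for every one of the 5. That scaling moved the median difference of all genes from 0.10 to -0.12, a shift of like size.

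None of 9 other chitinases and relatives passed a limma test, and the 5 described were given none. The 5 were chosen by their differences on these arrays, so this count may be partly set by that choice. The annotation gave probe sets for 9 further genes with chitinase names or close relatives, and in a limma fit over all 57258 probe sets 0 of 9 reached an adjusted p of 0.05 (Benjamini-Hochberg) in either direction. At that threshold, 17.3% of all genes passed, 13.8% higher and 3.46% lower. These were 2477 rises and 620 falls, a balance that turned to 1370 rises and 2403 falls after centring on the gene median. It was 0 of 9 in 13 alternative fits as well, and 0 of 5 in the fit limited to brighter probe sets, and 1 of the 9 had an unadjusted p under 0.05. Their median difference was -0.04, and the 95% intervals of the 9 differences all lay between -0.35 and 0.83.

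Among these genes, Cht1 (LOC4342115, OsChia1a), which has a class I name, read 10.55, 10.45 and 10.51 in wild type and 10.43, 10.37 and 10.33 in mutant leaves. The difference was -0.12 (SE 0.09, limma adjusted p = 0.407). Cht3 (OsChia1c), its neighbour in the class I series, differed by 0.03, on a probe set ending in _x_at that can bind other transcripts. Cht6 differed by -0.04, Cht11 by -0.08 and Rcb4 by -0.04. Of the 3 remaining genes named Chib3H or chitinase, LOC4351188 differed by -0.04 and Chib3H-h by -0.13. RIXI, a xylanase inhibitor with a chitinase-like fold, stood at 2.51, 2.60 and 2.72 against 3.44, 2.98 and 2.80. Its groups were separate, and its difference of 0.46 (SE 0.16) did not pass (limma adjusted p = 0.102). RIXI was thus the 1 gene of the 9 with an unadjusted p under 0.05.

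**Figure D2:**
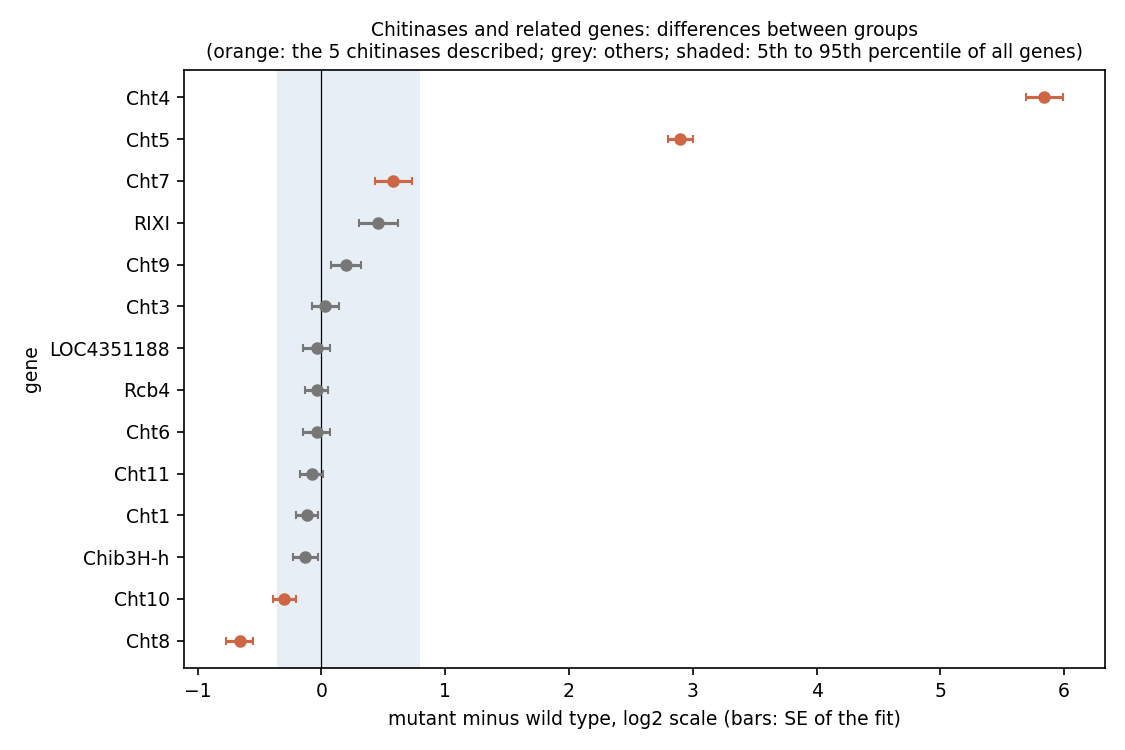
Mutant minus wild type on the log2 scale (x axis) for 14 genes with chitinase names or close relatives (y axis), with the SE of the fit as bars; orange marks the 5 chitinases described and grey the 9 others. Cht4 at 5.84 and Cht5 at 2.90 stand above, and Cht8 at -0.66 below, the shaded range of -0.35 to 0.79 that holds the genes between the 5th and 95th percentile.

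Cht4 and Cht5 lie close together on chromosome 4 in the order of the RefSeq gene table, with no measured gene between them. Between them the table lists 2 genes, a long non-coding RNA (LOC107277699) and a transcribed pseudogene (LOC124529568), neither with a probe set here. The measured genes on either side of the pair did not share its difference. The gene before Cht4, LOC4336262, differed by 0.04 (limma adjusted p = 0.793), and the first measured gene after Cht5, LOC4336267, by -0.11 (adjusted p = 0.659). Of the 9 nearest measured genes of Cht4 other than Cht5, none passed in either direction, and their differences ran from -0.26 to 0.47. By limma 1 of the 9 had an unadjusted p under 0.05. The highest difference was that of LOC4336259 (adjusted p = 0.0523), which passed in 7 of 14 alternative fits, at adjusted p from 0.0267 to 0.181 over them.

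Cht7 belongs to another cluster, on chromosome 5, where Cht2 (LOC4338718), Cht9 and Cht7 follow one another. Cht9 (LOC4338719) read 3.44, 3.32 and 3.23 in wild type and 3.42, 3.41 and 3.76 in mutant leaves. These groups overlapped, and the difference was 0.20 (SE 0.12, limma adjusted p = 0.320). Before Cht2 in that order, LOC4338714 rose by 1.12 (limma adjusted p = 0.00316), the only one of the 10 nearest measured genes of Cht7 to pass.

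Beside the chitinases that were lower, some neighbours were higher. Of the 10 nearest measured genes of Cht8 on chromosome 10, 3 rose, namely LOC4349274 by 1.51 (limma adjusted p = 0.000213), LOC4349270 by 0.77 and LOC4349269 by 0.46. Of the 10 of Cht10 on chromosome 1, 3 rose, namely LOC4325152 by 0.85 (adjusted p = 0.0499), LOC4327916 by 0.75 and LOC4325158 by 0.72. The nearest measured genes before and after Cht10 differed by -0.06 and 0.13 without passing. Over all 40 neighbours 7 rose, or 17.5%, and none fell, with a median of 0.15 beside 0.10 for all genes. This share is near the 13.8% of all genes. Leaving out 1 array gave between 5 and 7 rising neighbours, and the calls of LOC4325152 and LOC4349269 were the ones lost. Both were lost without mutant replicate 1 or 2 and without each of the wild type arrays, where their adjusted p reached 0.151 and 0.152 at most over all alternatives.

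**Figure D3:**
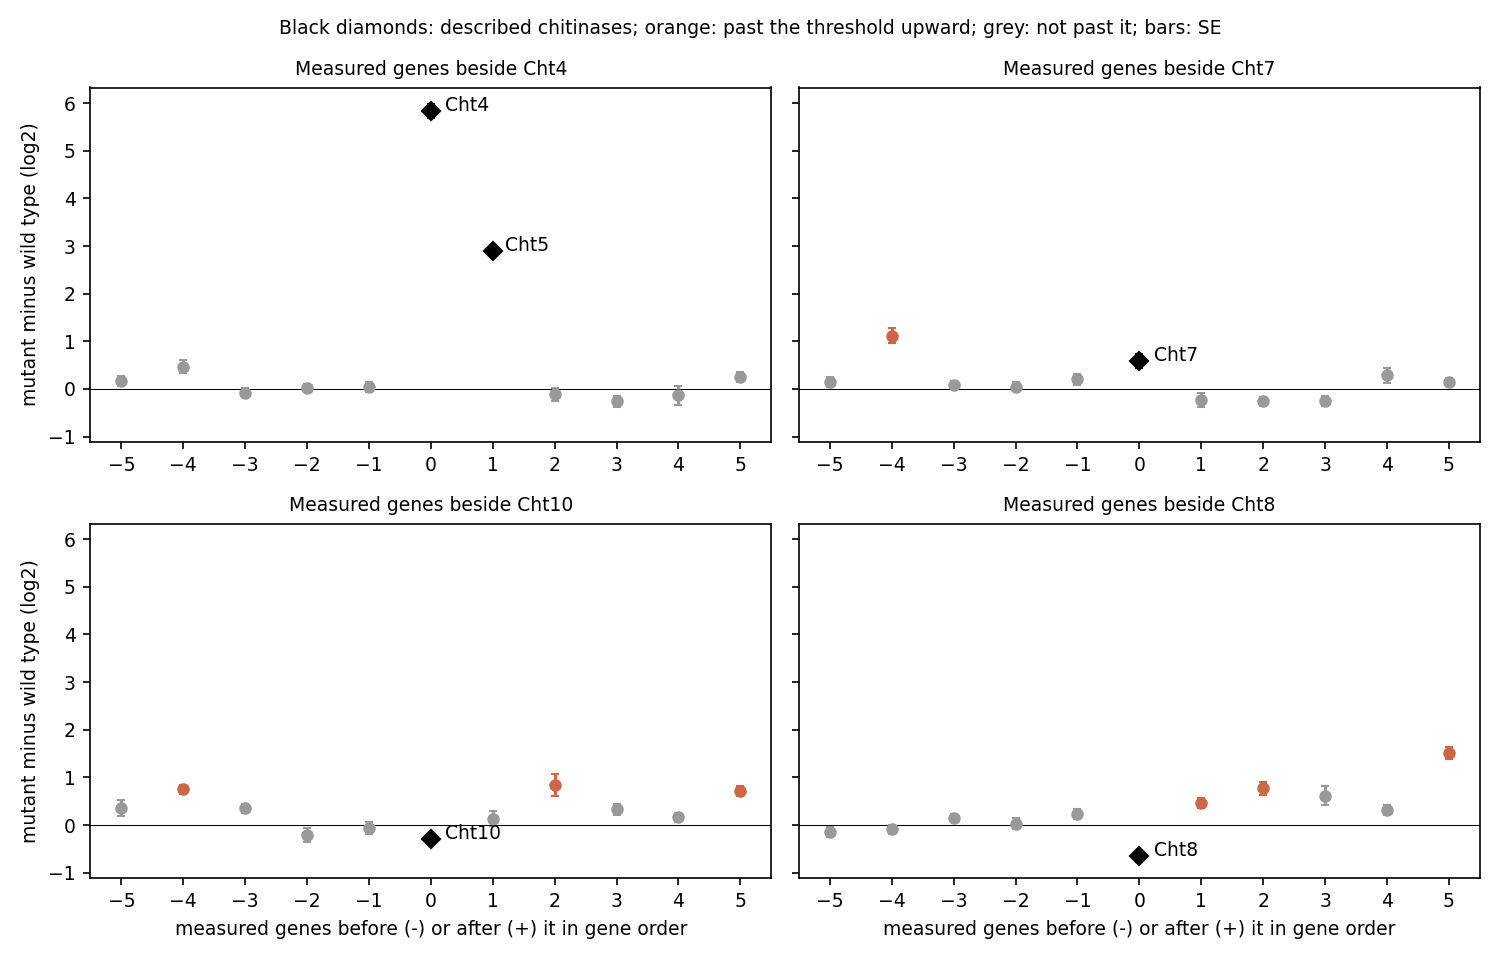
Mutant minus wild type on the log2 scale (y axis, bars SE) for the 5 nearest measured genes on each side of Cht4, Cht7, Cht10 and Cht8, by their order (x axis). Cht4 (5.84) and Cht5 (2.90) stand alone at their locus, where the other 9 genes lie between -0.26 and 0.47, while 3 rising genes each lie near Cht10 and Cht8.

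Chitin fragments released by such enzymes are perceived in rice by CEBiP, a membrane protein that binds chitin, together with the receptor kinase CERK1. Signals then run through small GTPases, an NADPH oxidase that makes reactive oxygen, and MAP kinases. Of 28 measured genes on a list of such functions, 7 rose, or 25%, beside 13.8% of all genes, none fell and 21 did not pass. The list median was 0.16, beside 0.10 over all genes. Adding the other chitinases and the pair of further pathogenesis-related genes, 7 of 39 rose.

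CEBiP rose most on this list. It read 6.33, 6.54 and 6.24 in wild type and 7.57, 7.43 and 7.17 in mutant leaves. The groups were well apart, and the difference was 1.02 (SE 0.13, limma adjusted p = 0.00212). It passed in all 14 alternative fits, with differences from 0.80 to 1.13 and an adjusted p of at most 0.0153. The GTPase gene RAC6 rose by 0.52 (adjusted p = 0.0232), the oxidase gene RBOHB by 0.41 (0.0247) and the chaperone gene Hsp90 by 0.42 (0.0285).

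The synonym CERK1 belongs to 2 genes of the table, and both rose; they and MPK4 are named here after their values were seen. LOC4346173, also RLK9, read 8.54, 8.32 and 8.31 against 9.04, 8.74 and 8.83, a difference of 0.47 (SE 0.12, limma adjusted p = 0.0376). RLK10 differed by 0.52 (adjusted p = 0.0344), on a probe set ending in _x_at, and the MAP kinase gene MPK4 by 0.40 (0.0348). LYP4, another chitin-binding receptor that is named after its values were seen, stood at 0.41 without passing (adjusted p = 0.111). These calls other than CEBiP depended on single arrays: without mutant replicates 1, 2 and 3 in turn, 1, 5 and 3 genes of the list rose. Without wild type replicates 1, 2 and 3 in turn 2, 2 and 1 rose. After centring on the gene median 1 rose and 1 fell.

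The further pathogenesis-related genes matched by name did not pass by limma and neither had an unadjusted p under 0.05. PBZ1, of the PR10 family, read 13.82, 13.86 and 13.85 in wild type and 13.81, 13.80 and 13.76 in mutant leaves (difference -0.05, SE 0.09, adjusted p = 0.721). The peroxidase PRX112 differed by 0.16 (SE 0.15, adjusted p = 0.527). Beta-1,3-glucanases, which often accumulate together with chitinases, were not analysed here.

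**Figure D4:**
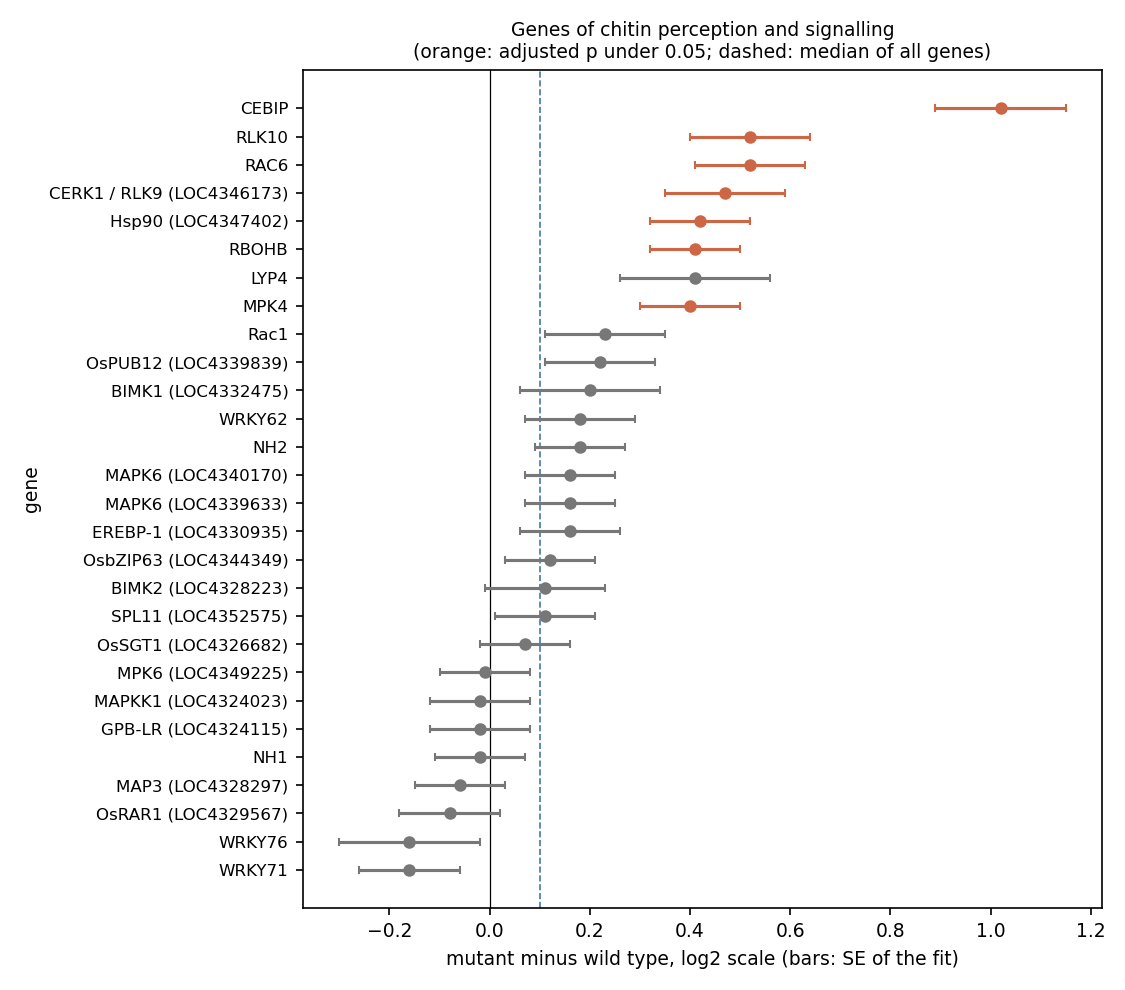
Mutant minus wild type on the log2 scale (x axis, bars SE) for 28 genes of chitin perception and signalling (y axis), with the 7 that passed in orange and the median of all genes dashed at 0.10. CEBiP stands at 1.02, and the other 6 that passed lie between 0.40 and 0.52.

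Some marker genes of panicles and of dividing cells were also higher on the mutant arrays. Of 19 measured panicle and flower markers 8 rose, none fell and 11 did not pass by limma, where 13.8% of all genes rose and 3.46% fell. MADS7 (1.71), MADS24 (1.57), MADS2 (1.02) and MADS6 (1.04) had the smallest adjusted p. The groups were separate with the mutant higher in 12 of the 19 and with the mutant lower in 3, beside 32.2% and 13.4% of all genes. Those 3 did not pass and were RTS (-0.16), MADS14 (-0.10) and MADS15 (-0.16), which are named after their values were seen. The mean level of the 19 was 5.57 to 5.62 on wild type and 6.04 to 6.21 on mutant arrays. Of 6 markers of dividing cells 3 rose, CycB2;2 (1.37), CycB1;1 (LOC4327547, 1.34) and CDKB2-1 (0.74), and 3 did not pass. Another gene with the synonym CycB1;1, LOC4326914, was among those that did not pass. It differed by -0.10 (limma adjusted p = 0.512) and is named after its values were seen. The mean level of the 6 was 4.77 to 4.91 on wild type and 5.32 to 5.78 on mutant arrays. None of 4 root markers passed by limma, and 1, Lsi1 at -0.29, had an unadjusted p under 0.05. Their mean level was 5.12 to 5.43 on wild type and 5.05 to 5.21 on mutant arrays. Of the 7 leaf blade markers 1 fell, GDCSH by 0.48, a call that was lost when either replicate 2 or replicate 3 of wild type was left out. The part of such transcripts in the chitinase values was not tested.

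Likeness to Cht4 and Cht5 was measured across the 6 arrays as the root mean square distance between deviations from each gene's own wild type mean, over 2458 other genes with a name. The distance is made from the same values that chose the genes and is a description only. Genes without a name were not compared and may lie nearer, since Cht5 came only 15th of all 17905 genes by its difference. Among the named genes, the nearest to Cht4, which has the highest difference of all genes, were Cht5 at a distance of 2.09, the dehydrin gene RAB21 at 2.11 and GLT2 at 2.16. The nearest to Cht5 were RAB21 at 0.13, the expansin gene EXPB3 at 0.16 and the malate synthase gene MS at 0.18. RAB21 read 7.15, 7.17 and 7.08 in wild type and 9.93, 10.24 and 9.89 in mutant leaves, which is a difference of 2.89 beside 2.90 for Cht5. EXPB3 differed by 2.77 and MS by 2.67. The wild type arrays of each of these genes lie close together, so the distance is set mainly by the mutant arrays.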

How the data were processed

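Total RNA was extracted with Trizol and hybridised as biotin-labelled cRNA, per the labels' protocols, to Affymetrix Rice Genome Arrays, 1 per sample. The authors deposited log2 values per probe set, made by RMA (per the submitters' processing notes, which name affy as the package; its version is not given). RMA makes the arrays' distributions alike, so differences in total RNA are lost. The log2 scale was read from the values (1.65 to 14.5). After leaving out 123 AFFX controls, 57258 probe sets remained, of which 22436 had 1 gene, 95 several and 34727 none in the platform annotation. Names came from RefSeq (ASM3414082v1), where all 17905 genes matched. Its coordinates were used only to put the genes in order along each chromosome, and no sequences were analysed here.

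limma 3.58.1, run in R 4.3.3, compared the groups (two-sided, Benjamini-Hochberg over all probe sets, threshold 0.05) and tables joined with pandas 2.3.3. The procedure was tested on simulated arrays. The number of arrays limits the precision, and 3 against 3 cannot go below p = 0.1 in an exact permutation test. The members and lists were chosen with earlier results of these data known. Some wrong name matches, such as tubby-like proteins, were removed from the lists by synonym. MADS18 (LOC4343851), named after its values were seen, stayed among the panicle markers through its synonym MADS2 and did not pass. Named genes were the 5 chitinases, all other matched chitinases, up to 4 genes per further list by adjusted p, called neighbours and the 3 nearest profiles; others are marked as named after their values were seen. Same-numbered arrays deviated together with correlations of 0.154, 0.00628 and 0.112. Differently numbered arrays of the mutant and the wild type had correlations from -0.277 to 0.228. The labels do not say that a number is shared, and the numbers were not taken to pair the arrays.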

Additional observations from a re-analysis of the deposited data

How the results depend on the processing

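The 5 chitinase differences kept their direction under each left-out array, each scaling and the replicate block; on 1 probe set of Cht8 the groups overlapped. Leaving out each array in turn gave 5.73 to 5.98 for Cht4, 2.86 to 2.94 for Cht5, 0.44 to 0.75 for Cht7, -0.35 to -0.26 for Cht10 and -0.75 to -0.61 for Cht8. Centring on the gene median, chosen after seeing the data, gave 2.69 for Cht5, -0.52 for Cht10 and -0.88 for Cht8. Repeated quantile normalization gave 2.80 for Cht5 and -0.46 for Cht10. For Cht8 the mean of its probe sets gave -0.46 and the set from another sequence record alone -0.05, while its _s_at set gave -0.65, and the cause was not tested.

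Over all genes 2477 rose and 620 fell. A fit on 1 probe set per gene, which tests fewer features, gave 3752 and 1131, and centring on the gene median 1370 and 2403. The intensity trend gave 1155 falls and repeated quantile normalization 969 falls. Leaving out each array gave 1238 to 2294 rises and 230 to 583 falls. Of the 39 chitin-related genes outside the 5, 7 rose and 0 fell. Repeated quantile normalization gave 4 rises, centring on the gene median 1 rise and 1 fall, and leaving out each array 1 to 5 rises. Of 40 neighbours 7 rose and 0 fell. An intensity trend gave 11 rises and 1 fall, centring on the gene median 2 falls and the fit per gene 1 fall. The replicate block, for numbers that the arrays only share, gave 2448 rises and 530 falls over all genes, 6 rises among the 39 and 8 among the 40.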
